A study of Arabidopsis thaliana with 6 samples.

Results

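Messenger RNA of 10 indole glucosinolate synthesis genes was followed in whole seedlings of Arabidopsis thaliana aged 8 days, in 3 libraries of the phod2 mutant and 3 libraries of the wild type (WT). The 10 genes are CYP79B2, CYP79B3, CYP83B1, SUR1, CYP81F1, CYP81F2, CYP81F3, CYP81F4, MYB34 and MYB51, out of 32833 genes in the deposited table. They were taken by identifier, and the set was chosen because CYP81F4 was much lower in phod2 than in WT. Their values in that comparison are therefore given as a description with no test, while the other genes of the pathway were tested. The sample descriptions write LIP1 where the titles write phod2, and the series title ties the study to the plastidial lipoyl synthase LIP1p and to phosphate homeostasis. The labels do not say what change phod2 carries or whether a library came from high or low phosphate supply.

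Indole glucosinolates are sulfur-rich defence compounds that Brassicaceae make from tryptophan. The P450 enzymes CYP79B2 and CYP79B3 turn tryptophan into indole-3-acetaldoxime, CYP83B1 and the C-S lyase SUR1 carry it towards the glucosinolate core, and glucosyl and sulfate transfer finish the parent compound. CYP81F enzymes then hydroxylate the indole ring and IGMT methyltransferases methylate it: CYP81F2 is known for the position that gives 4-methoxy-indol-3-ylmethyl glucosinolate, and CYP81F4 for the one that gives the 1-methoxy form, which accumulates mainly in roots. The R2R3-MYB factors MYB34 and MYB51 activate the pathway, MYB34 chiefly in roots and MYB51 chiefly in shoots.

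CYP81F3, CYP81F4 and CYP81F1 lie in this order on the plus strand of chromosome 4, with CYP81F3 starting 6.8 kb before CYP81F4 and CYP81F1 starting 6.3 kb after it. Another plus-strand gene, AT4G37420, starts 2.2 kb after the start of CYP81F4, between CYP81F4 and CYP81F1. CYP81F2 lies on chromosome 5. The coding sequences of CYP81F3 and CYP81F4 were 82.0% identical, those of CYP81F1 and CYP81F4 73.8% and those of CYP81F2 and CYP81F4 70.7%, so reads of most stretches can be told apart. The 60 coding bases around the codon of the haem-binding cysteine, the most conserved loop of a P450, show this. They are printed 5′ to 3′ from the TAIR10.1 genome of RefSeq, with bases that differ from CYP81F4 in capitals. CYP81F3 differed at 15 of these 60 bases, CYP81F1 at 19 and CYP81F2 at 23.
CYP81F4, chr4:17592541-17592600, plus strand: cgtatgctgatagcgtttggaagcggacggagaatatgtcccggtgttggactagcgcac
CYP81F3, chr4:17585958-17586017, plus strand: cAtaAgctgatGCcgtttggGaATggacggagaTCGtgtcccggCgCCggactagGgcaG
CYP81F1, chr4:17598602-17598661, plus strand: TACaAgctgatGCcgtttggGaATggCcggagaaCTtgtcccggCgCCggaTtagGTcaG
CYP81F2, chr5:23189454-23189513, plus strand: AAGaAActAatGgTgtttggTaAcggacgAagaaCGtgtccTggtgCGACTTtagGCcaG

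The 250 bases before the annotated gene start were read for all members. The pair CYP79B2 and CYP79B3 shared a run of 22 identical bases there, the longest run shared by any pair of members, and no other gene among 32546 held it in the same window. The run begins 77 bases before the start of CYP79B2 and 151 bases before that of CYP79B3, and is in capitals in both stretches.
CYP79B2, chr4:18524792-18525041, plus strand: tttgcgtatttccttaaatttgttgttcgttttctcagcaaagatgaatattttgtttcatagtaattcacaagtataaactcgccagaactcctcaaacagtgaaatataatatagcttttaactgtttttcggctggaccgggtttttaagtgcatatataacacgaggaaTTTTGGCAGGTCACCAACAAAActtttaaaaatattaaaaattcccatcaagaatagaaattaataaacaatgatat
CYP79B3, chr2:9488163-9488412, plus strand: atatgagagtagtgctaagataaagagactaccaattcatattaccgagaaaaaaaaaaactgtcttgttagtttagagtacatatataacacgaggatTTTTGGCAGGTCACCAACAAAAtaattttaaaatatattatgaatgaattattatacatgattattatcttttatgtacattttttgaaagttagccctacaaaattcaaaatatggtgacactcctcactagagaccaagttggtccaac
The same windows were searched on both strands for 4 short motifs. The W-box core (TTGAC) was in 4 of the 10 members (CYP81F2, CYP81F4, MYB51 and SUR1) against 44.3% of all genes, the G-box (CACGTG) in 1 (SUR1) against 5.9%, the MYB core (CNGTTA) in 1 (CYP79B2) against 26.3%, and P1BS (GNATATNC), the element bound by the phosphate starvation factor PHR1, in 0 against 5.42%. A match is a match of letters only, and no match says only that the letters are not in this window. The stretch before CYP81F4, the member with the largest difference, held the W-box core once, on the minus strand 51 bases before the start, in capitals.
CYP81F4, chr4:17590522-17590771, plus strand: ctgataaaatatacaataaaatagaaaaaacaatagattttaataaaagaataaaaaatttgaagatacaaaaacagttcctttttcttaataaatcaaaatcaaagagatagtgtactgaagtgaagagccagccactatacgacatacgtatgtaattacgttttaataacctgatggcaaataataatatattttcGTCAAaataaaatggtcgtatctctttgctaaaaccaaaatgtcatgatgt

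Counted reads per library ranged between 17319308 and 22417595, and the test covered 20169 genes with sufficient counts, 9 of the 10 members among them. LIP1P itself had 13.7 ± 0.690 FPKM (fragments per exon length and library total) in phod2 and 22.1 ± 1.14 FPKM in WT (SD, n = 3 each), with no overlap between the genotypes. Fold changes are phod2 relative to WT, with standard errors (SE) from the edgeR fit. A gene passed where its adjusted p was 0.05 or below, and met the 2-fold rule if it also differed at least 2-fold. The study calls the 3 libraries of a genotype biological replicates but does not say how the plants were grown apart, so a p-value speaks only for the variation among these 6 libraries.

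The tailoring enzymes CYP81F4 and CYP81F3 were the members that differed most, and both were lower in every phod2 library, while the log2 fold changes of the 4 core enzymes lay between -0.26 and -0.02. MYB51 and CYP81F2 were higher in every phod2 library, and MYB34 was lower. Of the 9 members tested, 2 met the 2-fold rule as lower (background 5.72% of all tested genes) and 0 as higher (background 1.79%). The genotypes were apart in 7 of the 9, against 52.0% of all tested genes. The median log2 fold change over the 9 was -0.24, beside 0.01 over all tested genes. Since the set was chosen on this comparison, nothing is read from these counts.

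**Figure D1:**
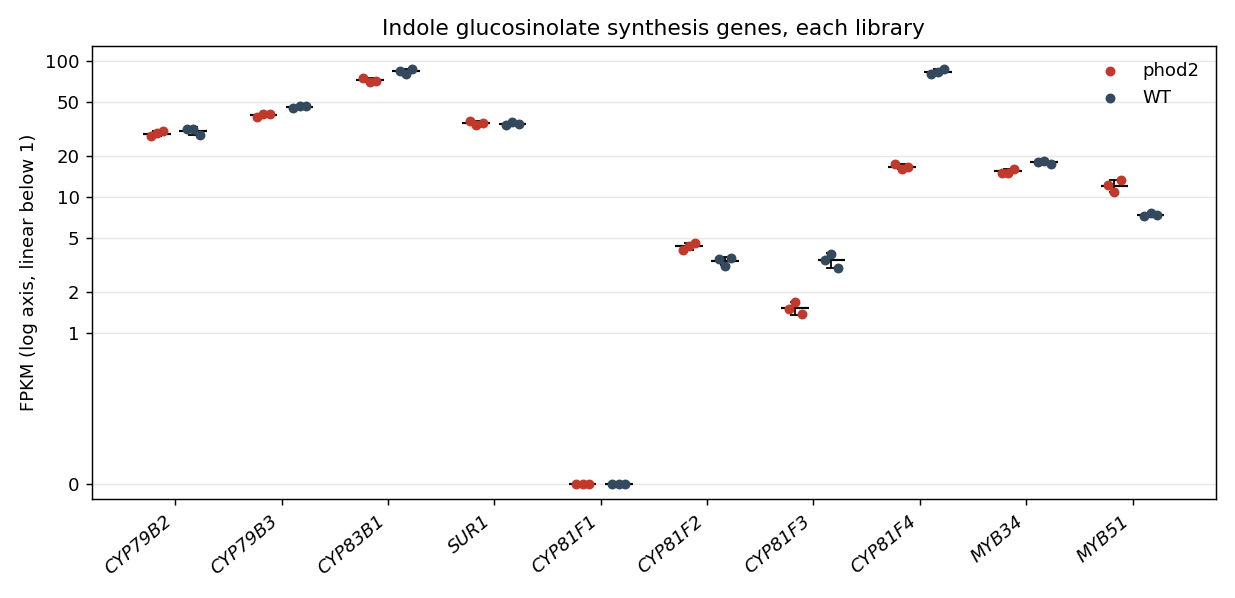
FPKM of each member in each library (vertical axis, logarithmic and linear below 1), with phod2 in red left of WT in dark blue; points are libraries, and bars the mean and SD of 3. CYP81F4 lies at 16.1 to 17.6 FPKM in phod2 and 81.2 to 87.5 FPKM in WT, and CYP81F1 is listed at 0 throughout.

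CYP79B2 and CYP79B3, which commit tryptophan to the pathway, differed little. CYP79B2 (AT4G39950, chromosome 4, positions 18525042 to 18527602) had 28.1, 29.6 and 30.8 FPKM in phod2 and 32.0, 31.8 and 28.6 FPKM in WT, a log2 fold change of -0.10 ± 0.05. Its ranges overlapped. CYP79B3 (AT2G22330, chromosome 2, positions 9488413 to 9491404) had 39.3, 40.7 and 41.2 FPKM in phod2 and 45.5, 46.8 and 46.7 FPKM in WT, a log2 fold change of -0.24 ± 0.04. All 3 phod2 libraries lay below WT, by a fold of 0.848. The next enzyme, CYP83B1 (AT4G31500), which oxidises the aldoxime, had 75.5, 70.4 and 72.2 FPKM in phod2 and 85.3, 80.5 and 87.6 FPKM in WT, with a log2 fold change of -0.26 ± 0.03. It too was lower in every phod2 library. SUR1 (AT2G20610), the C-S lyase of the core, had 36.6, 34.3 and 35.0 FPKM in phod2 and 33.9, 35.8 and 34.7 FPKM in WT. Its log2 fold change was -0.02 ± 0.04, and the genotypes overlapped.

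The remaining genes of the core and of the sulfate donor were tested. Of 8, 6 fell (background 24.6% lower), 1 rose (background 20.9% higher) and 1 did not pass, with 0 at 2-fold in edgeR (7 passed the adjusted p alone). GSTU13, a glutathione transferase of the pathway, fell to 37.9 ± 1.80 FPKM in phod2, against 54.6 ± 0.754 FPKM in WT (log2 fold change -0.57 ± 0.04, edgeR adjusted p = 8.3e-17). GSTF9, another glutathione transferase, fell by 0.27 ± 0.02 on the log2 scale (edgeR adjusted p = 4.1e-14), and APK1, a kinase that makes the sulfate donor, by 0.31 ± 0.05 (edgeR adjusted p = 3.8e-06). The sulfotransferase gene SOT16 fell by 0.17 ± 0.05 (edgeR adjusted p = 0.0046), a call lost without WT replicate 3 (adjusted p = 0.051). APK2, the second such kinase, had a log2 fold change of -0.13 ± 0.06 (edgeR adjusted p = 0.046) and missed the threshold in 12 of 15 alternatives, with an adjusted p of up to 0.23. UGT74B1, the glucosyltransferase, had 27.6 ± 3.05 FPKM in phod2 and 25.8 ± 2.26 FPKM in WT (edgeR adjusted p = 0.41), and its sign turned without phod2 replicate 3.

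CYP81F4 (AT4G37410, chromosome 4, positions 17590772 to 17592920, 2 exons) had 545, 538 and 603 counts in phod2 and 3134, 2504 and 3262 counts in WT. These are 17.6, 16.1 and 16.7 FPKM in phod2 and 81.2, 84.0 and 87.5 FPKM in WT. The libraries of each genotype lay close together and the genotypes were far apart, with a log2 fold change of -2.37 ± 0.04, or a fold of 0.194. Its neighbour CYP81F3 (AT4G37400, chromosome 4, positions 17583992 to 17586442), an enzyme of the same subfamily, had 1.5, 1.7 and 1.39 FPKM in phod2 and 3.46, 3.86 and 3.01 FPKM in WT. It was lower in every phod2 library, with a log2 fold change of -1.21 ± 0.16, and its level was low in both genotypes. On the log2(FPKM + 1) scale, which shrinks the folds of low genes, the difference was -0.81, short of 2-fold. CYP81F2 (AT5G57220, chromosome 5, positions 23187840 to 23189902) went the other way, with 4.09, 4.38 and 4.62 FPKM in phod2 and 3.51, 3.14 and 3.58 FPKM in WT, a log2 fold change of 0.31 ± 0.12.

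CYP81F1 (AT4G37430, chromosome 4, positions 17597110 to 17598958) was listed at 0 counts in all 6 libraries. In the annotation 98.4% of its exon bases lie within exons of AT4G37432, an RNA gene on the other strand. Of 1153 genes whose exons lie wholly or almost wholly within those of others, 95.1% were at 0 in every library, against 22.3% of the 22776 genes with no exon overlap. CYP81F1, with 29 exon bases clear, falls just short of that class, and its 0 cannot be taken as a measure of its transcript. CYP81F4 is affected too: 88.2% of its exon bases lie within exons of AT4G37409 on the other strand, which leaves 203 bases clear, while the deposited FPKM divide by the full 1722 bases. AT4G37409 had 0 to 2 counts in phod2 and 2 to 4 counts in WT. The level of CYP81F4 can therefore not be ranked against that of other genes; its comparison between genotypes uses the same bases in every library.

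Per length, CYP83B1 had the highest level of the other members in both genotypes (72.7 ± 2.54 FPKM in phod2 and 84.5 ± 3.61 FPKM in WT), followed by CYP79B3, SUR1, CYP79B2, MYB34 and MYB51. The ranges of neighbours in that order did not overlap within either genotype. CYP81F2 and CYP81F3 were at the low end: CYP81F2 was above CYP81F3 in all phod2 libraries, and in WT their ranges overlapped.

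Most of the methyltransferases that act after CYP81F enzymes were lower as well. Of 5, 4 fell (background 24.6% lower), 0 rose (background 20.9% higher) and 1 did not pass. The 2-fold rule was met by 2 as lower (background 5.72% of all tested genes). The median log2 fold change was -0.84, beside 0.01 over all tested genes. IGMT5 (AT1G76790), known to make the 1-methoxy compound from the product of CYP81F4, had 32.6, 34.2 and 29.9 FPKM in phod2 and 76.1, 72.8 and 74.8 FPKM in WT. The genotypes were far apart, with 32.2 ± 2.17 FPKM in phod2 and 74.5 ± 1.65 FPKM in WT (SD, n = 3 each), and the log2 fold change was -1.25 ± 0.04 (edgeR adjusted p = 3.2e-33). IGMT1, which acts in 4-methoxylation, fell to 11.3 ± 0.702 FPKM in phod2, against 19.8 ± 1.33 FPKM in WT (-0.84 ± 0.07, edgeR adjusted p = 6.6e-16). IGMT3 fell by 1.71 ± 0.10 (edgeR adjusted p = 1.6e-21). IGMT2 had -0.70 ± 0.26 (edgeR adjusted p = 0.021), which was lost in DESeq2 (adjusted p = 0.077) and without phod2 replicate 2 or WT replicate 3 (adjusted p = 0.080 and 0.089), and was -0.33 on the log2(FPKM + 1) scale. IGMT2 and IGMT3 are 96.3% identical over most of their transcripts, so reads can be shared between them. IGMT4, named after its values were seen, is the most abundant of the family, with 173.6, 174.4 and 169.7 FPKM in phod2 and 170.3, 169.6 and 166.6 FPKM in WT (-0.01 ± 0.03, edgeR adjusted p = 0.79).

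**Figure D2:**
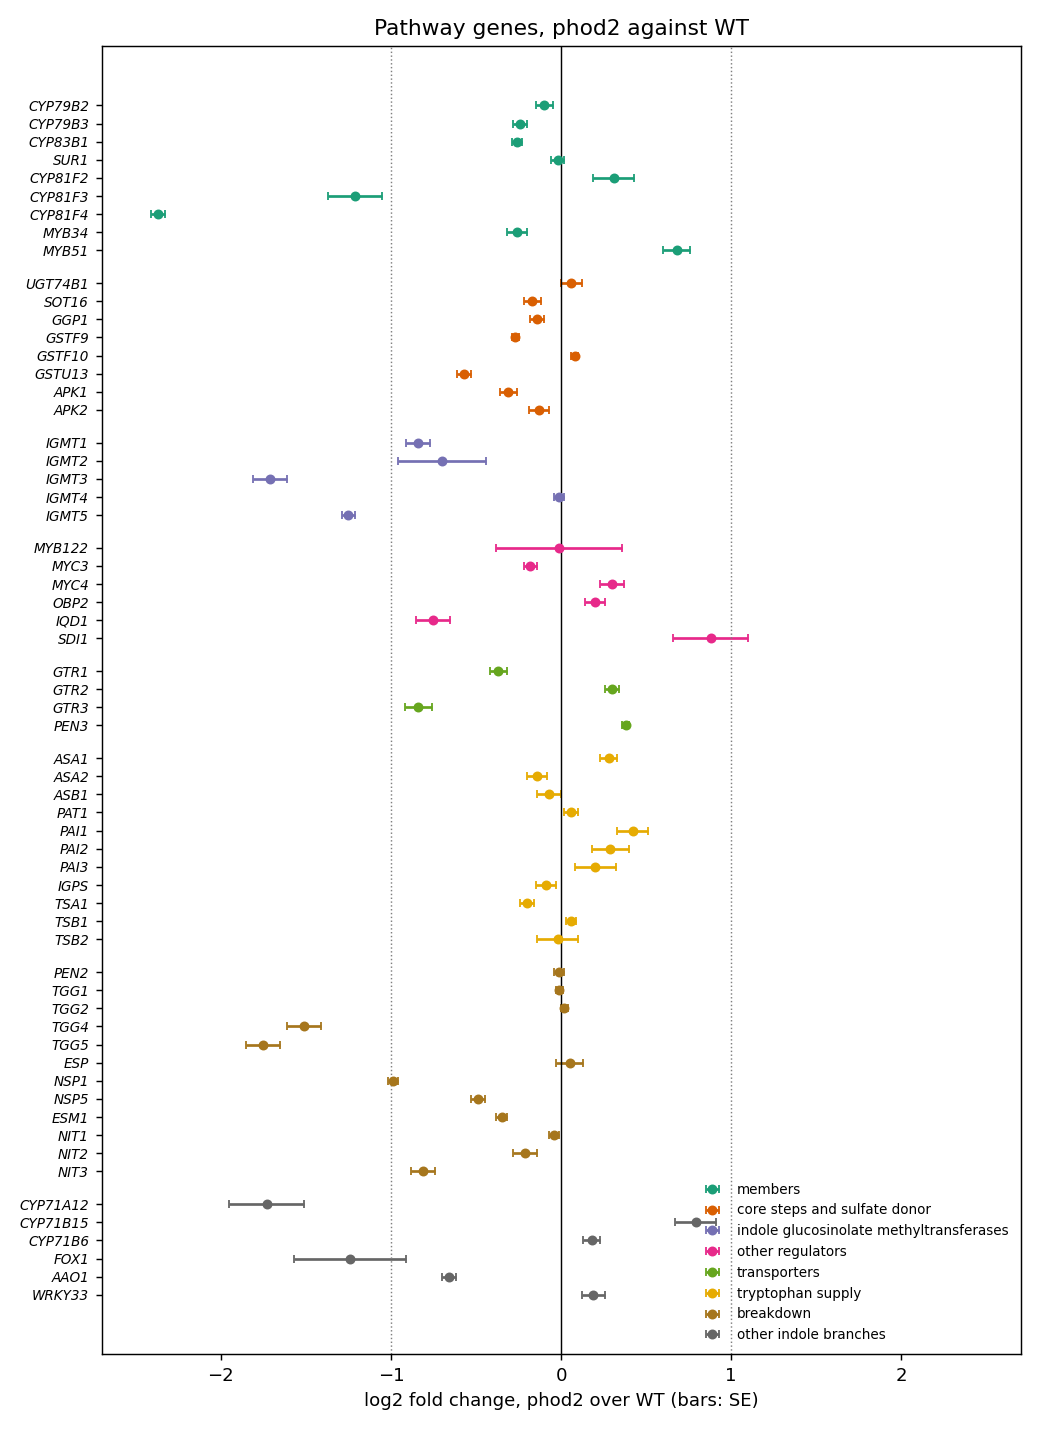
Log2 fold change of phod2 over WT for each tested member and pathway gene (horizontal axis, bars SE), grouped by role down the page; dotted lines mark 2-fold. CYP81F4 (-2.37), TGG5 (-1.75), CYP71A12 (-1.73) and IGMT3 (-1.71) lie farthest to the left, and the 4 core enzymes among the members lie between -0.26 and -0.02.

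The regulators differed in opposite directions. MYB34 (AT5G60890, chromosome 5, positions 24494291 to 24496371) had 15.1, 15.2 and 16.3 FPKM in phod2 and 18.3, 18.5 and 17.7 FPKM in WT, a log2 fold change of -0.26 ± 0.06. MYB51 (AT1G18570, chromosome 1, positions 6389399 to 6391386) had 12.3, 10.99 and 13.3 FPKM in phod2 and 7.25, 7.70 and 7.40 FPKM in WT, a log2 fold change of 0.68 ± 0.08. Neither gene's genotypes overlapped, and the level of MYB34 divided by that of MYB51 was 1.22 to 1.38 in phod2 and 2.39 to 2.52 in WT. MYB122, another factor of this group, had 0.527 ± 0.208 FPKM in phod2 and 0.537 ± 0.276 FPKM in WT, and its sign changed between settings. Of the 6 other regulators tested, 3 rose (background 20.9% higher), 2 fell (background 24.6% lower) and 1 did not pass, with 0 at 2-fold in edgeR (5 passed the adjusted p alone). The calmodulin-binding protein gene IQD1 fell by 0.75 ± 0.10 on the log2 scale (edgeR adjusted p = 6.0e-09), and SDI1, a sulfur deficiency gene that represses glucosinolate synthesis, rose by 0.88 ± 0.22 (edgeR adjusted p = 8.4e-04) to 2.22 ± 0.0624 FPKM in phod2, against 1.17 ± 0.161 FPKM in WT (0.57 on the log2(FPKM + 1) scale). The bHLH partners of the MYB factors split, with MYC3 at -0.18 ± 0.04 (edgeR adjusted p = 1.4e-04) and MYC4 at 0.30 ± 0.07 (edgeR adjusted p = 6.4e-04). MYC2 was listed at 0, with 98.5% of its exon bases within exons of AT1G32630 on the other strand.

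Transport genes also moved both ways. GTR3, an indole glucosinolate transporter of roots, fell to 6.83 ± 0.330 FPKM in phod2, against 11.9 ± 0.200 FPKM in WT (-0.84 ± 0.08, edgeR adjusted p = 2.2e-14). GTR1, a broader glucosinolate importer, fell by 0.37 ± 0.05 (edgeR adjusted p = 5.9e-09), and its relative GTR2 rose by 0.30 ± 0.04 (edgeR adjusted p = 3.0e-08). PEN3, an ABC transporter that exports indole defence compounds, rose by 0.38 ± 0.02 (edgeR adjusted p = 8.4e-23). Exons of other genes cover 30.7% of the exon bases of GTR3.

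Genes that supply tryptophan moved both ways. Of 11 tested, 3 rose (background 20.9% higher), 1 fell (background 24.6% lower) and 7 did not pass, with 0 at 2-fold in edgeR (4 passed the adjusted p alone) and a median log2 fold change of 0.06. ASA1, the feedback-controlled first enzyme, rose to 25.5 ± 0.372 FPKM in phod2, against 20.4 ± 0.621 FPKM in WT (0.28 ± 0.05, edgeR adjusted p = 1.2e-06). TSA1, the alpha subunit of tryptophan synthase, fell by 0.20 ± 0.04 (edgeR adjusted p = 7.8e-05). PAI1 rose by 0.42 ± 0.09 (edgeR adjusted p = 6.7e-05), and PAI2 by 0.29 ± 0.11 (edgeR adjusted p = 0.023), a call lost in DESeq2 (adjusted p = 0.075), without phod2 replicate 3 (0.21) and without WT replicate 2 (0.11). PAI1 and PAI2 share a stretch of 99.5% identity. With library totals, or limma on either pseudocount, 5 genes of this list rose, and with robust shrinkage or without phod2 replicate 1 or phod2 replicate 2, 2 fell.

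Among genes that break glucosinolates down, 7 of 12 fell (background 24.6% lower), 0 rose (background 20.9% higher) and 5 did not pass (median -0.28). With library totals 1 rose. TGG4 and TGG5, the myrosinases of roots, had 3.71 ± 0.255 FPKM and 3.01 ± 0.388 FPKM in phod2 and 10.3 ± 0.660 FPKM and 9.80 ± 0.309 FPKM in WT. They fell by 1.51 ± 0.10 and 1.75 ± 0.10 on the log2 scale (edgeR adjusted p = 2.2e-20 and 2.5e-22), and are 95.3% identical, so reads can be shared. The nitrile specifier gene NSP1 fell to 147.0 ± 8.02 FPKM in phod2, against 283.0 ± 6.48 FPKM in WT (-0.99 ± 0.03, edgeR adjusted p = 3.7e-38), and ESM1, an epithiospecifier modifier, by 0.35 ± 0.03 (edgeR adjusted p = 1.3e-17). PEN2, the myrosinase of induced leaf defence, had 80.6 ± 3.38 FPKM in phod2 and 78.8 ± 1.30 FPKM in WT (edgeR adjusted p = 0.84), with a sign that changed between settings. The leaf myrosinases TGG1 and TGG2, singled out once their values were known, stood at -0.01 ± 0.02 and 0.02 ± 0.02 on the log2 scale (edgeR adjusted p = 0.77 and 0.60).

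The tested genes of other branches from the same aldoxime and its relatives split evenly. Of 6, 3 were higher (background 20.9%) and 3 lower (background 24.6%, and 1 lower with the filter that asks for 5 FPKM in 3 libraries). CYP71A13 and CYP82C2, named after their values were seen, had too few counts for the test. They had 0.0967 and 0 FPKM in phod2, against 0.27 and 0.0633 FPKM in WT. CYP71A12, an enzyme of the camalexin and indole-carbonyl nitrile branch, had 0.67, 1.00 and 0.77 FPKM in phod2 and 2.18, 2.71 and 3.06 FPKM in WT (-1.73 ± 0.22, edgeR adjusted p = 8.1e-10, and -1.01 on the log2(FPKM + 1) scale). FOX1, of the same nitrile branch, fell to 0.333 ± 0.0777 FPKM in phod2, against 0.790 ± 0.203 FPKM in WT (-1.24 ± 0.33, edgeR adjusted p = 0.0012, and -0.42 on that scale). AAO1, an aldehyde oxidase of indole-3-carboxylic acid formation, fell by 0.66 ± 0.04 (edgeR adjusted p = 7.1e-20). CYP71B15, the last enzyme of camalexin synthesis, rose to 5.85 ± 0.459 FPKM in phod2, against 3.29 ± 0.377 FPKM in WT (0.79 ± 0.12, edgeR adjusted p = 7.4e-08).

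Around CYP81F4 on chromosome 4, 24 genes other than members were tested within 50 kb. Of these, 5 rose (background 20.9% higher), 5 fell (background 24.6% lower) and 14 did not pass. Both counts lie near those shares. AGP18, an arabinogalactan protein gene 14.8 kb away, fell by 1.22 ± 0.04 on the log2 scale (edgeR adjusted p = 1.2e-32), and PER51, a peroxidase gene 43.9 kb away, by 0.95 ± 0.07 (edgeR adjusted p = 3.0e-18), both named after their values were seen. CYP81H1, CYP81D4 and CYP81D8, relatives of CYP81F4, rose by 0.22 ± 0.07, 0.26 ± 0.05 and 0.93 ± 0.17 on the log2 scale (edgeR adjusted p = 0.0063, 1.3e-05 and 6.0e-06), and CYP81D5 did not pass. CYP81D3, named like CYP81H1 and CYP81D5 after its values were seen, fell by 1.18 ± 0.23 (edgeR adjusted p = 1.4e-05) at a level of 0.727 ± 0.0651 FPKM in phod2 and 1.62 ± 0.176 FPKM in WT. Of the 9 CYP81 relatives tested anywhere in the genome, 4 rose (background 20.9%), 2 fell (background 24.6%) and 3 did not pass. CYP81D11 on chromosome 3 fell by 1.05 ± 0.06 (edgeR adjusted p = 1.1e-22), and CYP81D1 on chromosome 5 rose by 1.09 ± 0.14 (edgeR adjusted p = 3.0e-09). On the log2(FPKM + 1) scale 0 of these relatives reached 2-fold, and without phod2 replicate 2 CYP81D8 was called higher as well, at 1.02.

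**Figure D3:**
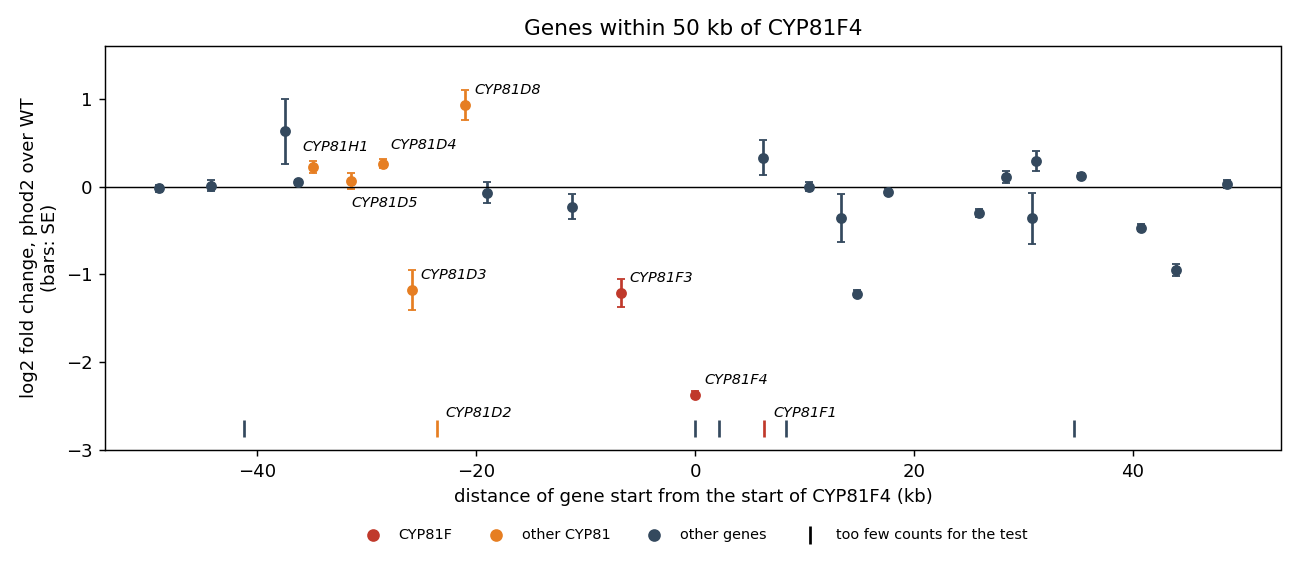
Log2 fold change of phod2 over WT (vertical axis, bars SE) for genes that start within 50 kb of CYP81F4, by distance from its start (horizontal axis, kb); CYP81F genes are red, other CYP81 genes orange, and ticks at the bottom mark genes with too few counts. CYP81F3 (-1.21) and CYP81F4 (-2.37) lie next to each other. Of the 24 other genes tested 5 rose (background 20.9%) and 5 fell (background 24.6%), AGP18 (-1.22) and CYP81D3 (-1.18) lying lowest.

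Genes with a pattern like that of CYP81F4 over the 6 libraries were ranked by the root mean square difference of log2 CPM (counts scaled to library size), each centred on the gene's mean, among 13778 genes of at least 5 FPKM in one genotype. The first 5 were AT3G06390, annotated as CASP-like protein 1D2 (difference 0.045), AT5G26290, a TRAF-like family gene (0.061), CYP708A2 of root triterpene synthesis (0.065), the beta-glucosidase gene BGLU22 (0.073) and the dirigent gene DIR18 (0.081). Their folds were 0.191, 0.207, 0.184, 0.179 and 0.171, beside 0.194 for CYP81F4. The pathway gene closest to it, TGG5, ranked 123rd (0.326), and IGMT5 ranked 281st (0.563). The ranking rests on the step between genotypes, which all these libraries share.

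Most markers of root hairs and endodermis were lower in the same libraries, while most of the meristem and identity markers, several at low counts, did not pass. Of 25 root hair, endodermis and root meristem markers, 19 fell (background 24.6% lower), 0 rose (background 20.9% higher) and 6 did not pass. The median log2 fold change of these markers was -1.39, and none was at 0. Their summed level was 75.3 to 81.0 FPKM in phod2 and 178.0 to 194.0 FPKM in WT. The defining markers PIN2, CASP1 and COBL9 had 3.69, 9.22 and 0.797 FPKM in phod2 and 8.56, 36.0 and 3.14 FPKM in WT. The 6 that did not pass were the meristem and stem cell niche genes WOX5 (-0.01 ± 0.31), PLT1 (-0.59 ± 0.27) and PLT2 (-0.37 ± 0.35), the endodermis identity genes SCR (0.10 ± 0.05) and SHR (0.07 ± 0.07), and ESB1 (0.65 ± 0.36), which acts in the Casparian strip (log2 fold change ± SE). WOX5, PLT1, PLT2 and ESB1 had only 14 to 24, 15 to 43, 9 to 24 and 7 to 23 counts, so the test could miss a difference in them. MYB36, also at -0.59 (SE 0.14), passed with 73 to 140 counts (edgeR adjusted p = 4.1e-04). Of 10 shoot markers, 6 rose (background 20.9%), 2 fell (background 24.6%) and 2 did not pass (median 0.10). The summed level of the shoot markers was 17478 to 17787 FPKM in phod2 and 16835 to 17119 FPKM in WT. RBCS1A made up most of it (12442 FPKM in phod2, 12207 FPKM in WT) and did not pass (-0.01 ± 0.02, edgeR adjusted p = 0.50). The other defining shoot markers split, with LHCB1.1 at -0.47 ± 0.03 (edgeR adjusted p = 3.6e-23) and PDF1 at 0.11 ± 0.03 (edgeR adjusted p = 0.0014). FPKM divide by library totals without the TMM factors of the test (1.0116 to 1.0173 in phod2, 0.9847 to 0.9868 in WT), so the sums show no rise of the shoot part. In whole seedlings fewer cells of a type and less RNA per cell cannot be told apart, and the part of the root markers in the differences of CYP81F4, CYP81F3, IGMT5, GTR3, TGG4 and TGG5 was not tested.

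**Figure D4:**
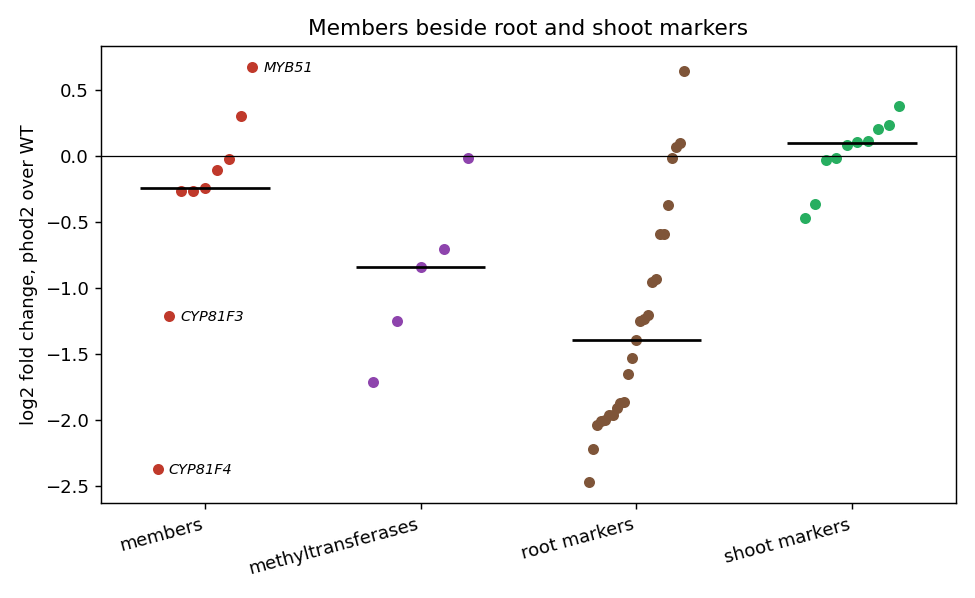
Log2 fold change of phod2 over WT (vertical axis) for the tested members, the methyltransferases, the root markers and the shoot markers; points are genes and bars medians. The medians are -0.24 for the members, -0.84 for the methyltransferases, -1.39 for the root markers and 0.10 for the shoot markers.

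The aliphatic glucosinolate genes, which use methionine in place of tryptophan, were set beside this pathway from a list of 16 in the table. Of 14 tested, 7 rose (background 20.9% higher), 2 fell (background 24.6% lower) and 5 did not pass. At 2-fold in edgeR there were 0 (9 passed the adjusted p alone), and the median log2 fold change was 0.17. Their regulator MYB28, named after its values were seen, rose to 42.3 ± 0.427 FPKM in phod2, against 22.7 ± 0.435 FPKM in WT (0.86 ± 0.04, edgeR adjusted p = 1.7e-25). The difference between the 2 pathways was not tested. All lists of the indole pathway other than the members, CYP81 relatives included, held 61 tested genes. Of these, 16 rose (background 20.9%), 27 fell (background 24.6%) and 18 did not pass, with a median of -0.04. At 2-fold 1 was higher (background 1.79%) and 8 were lower (background 5.72%).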

How the data were processed

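RNA of whole Arabidopsis seedlings was sequenced in 3 phod2 and 3 WT libraries, grouped by the sample titles. Per the file headers, the deposited table gives each library's whole-number counts and its FPKM values. The FPKM equal the count divided by exonic gene size and library total to within 0.005. The exonic gene size, in bases, is another deposited column (other unit: a length). No source used here gives the aligner, counter, strand use or annotation release. The submitters' processing notes name mm10, a mouse build, whereas 32532 of 32548 matched identifiers (99.95%) have the start and end of the TAIR10.1 annotation, so coordinates are TAIR10.1, counted from 1.

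The main test was edgeR's quasi-likelihood test on the counts (edgeR 4.0.16, 2-sided, TMM factors, R 4.3.3) over the 20169 genes left by filterByExpr, with genotype as the only term and Benjamini-Hochberg adjustment over all of them. SE is the absolute log2 fold change over the square root of F. The step was tested on simulated data. Alternatives were DESeq2 1.42.0, DESeq2 size factors or library totals in edgeR, other filters, robust shrinkage, limma 3.58.1 on log2(FPKM + 1) and log2(FPKM + 0.1), a replicate block and each library left out. Within a genotype, counts of library pairs varied beyond sampling noise (1.57 to 2.07 chi-square units for each degree of freedom), so none was a copy.

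Members and lists were chosen with earlier results of these data known. Named genes are the members, LIP1P, 9 genes by name, from each list up to 4 passing genes, taken by smallest adjusted p, and the 5 genes most like CYP81F4; the rule also allowed aliphatic genes past 2-fold, of which there were 0. Near-identical copies were sought among transcripts with BLAST 2.17.0 (same strand, 95% identity or more, covering 30% or more). Coding sequences were aligned with Biopython 1.88.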

Additional observations from a re-analysis of the deposited data

How the results depend on the processing

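CYP81F4 had a log2 fold change of -2.40 to -2.34 with one library left out and of -2.26 by limma on log2(FPKM + 1). The pathway genes other than members, CYP81 relatives included, gave 8 lower and 1 higher at 2-fold. With one library left out they gave 8 to 9 lower and 1 to 2 higher, and both with a filter that asks for 5 FPKM in 3 libraries and by limma on log2(FPKM + 1) they gave 5 lower and 0 higher. Over all genes 1153 were lower and 362 higher; these counts were 422 and 87 with the FPKM filter, which leaves fewer genes, and 488 and 131 by limma on log2(FPKM + 1). The sign turned for genes near 0: UGT74B1 had -0.02 to 0.14 with one library left out, MYB122 had 0.03 with library totals, 0.01 by limma on log2(FPKM + 0.1) and -0.37 to 0.43 with one library left out, and PEN2 had 0.03 with library totals and by both limma fits, and -0.04 to 0.02 with one library left out. The sign of SUR1, whose range was -0.04 to 0.02, turned as well. The cause of these changes was not tested.

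Same-numbered phod2 and WT libraries showed no shared deviation (correlations -0.079, 0.014 and -0.086). With 3 libraries per genotype this cannot show whether they were grown or prepared together, and the labels do not say. With the replicate block CYP81F4 had a log2 fold change of -2.37, and the pathway genes gave 8 lower and 1 higher at 2-fold. Low counts limit MYB122, FOX1, IGMT2, CYP81F3, SDI1, CYP71A12 and CYP81D3, and the root markers WOX5, PLT1, PLT2 and ESB1. Overlapping exons limit CYP81F1, CYP81F4 and MYC2, and in part GTR3.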
